A study of Rattus norvegicus with 2 samples.

Results

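Interferon-stimulated genes were examined in 2 sorted populations of rat splenic natural killer (NK) cells. The set holds 42 genes, looked up by symbol in the array annotation. In that annotation 14217 genes had at least 1 probe set carrying their symbol alone. Of the 42, 34 had at least 1 probe set carrying their symbol alone, and 32 were measured, meaning above a floor of 20.4 signal units on at least 1 array. The comparison was of NKR-P1B+ cells, which carry the inhibitory lectin-like receptor NKR-P1B and lack Ly49s3, with Ly49s3+ cells, which carry the activating receptor Ly49s3 and lack NKR-P1B. Both populations were CD3-, NKR-P1A+ spleen cells of the PVG.7b strain. The 9 rats of the study were 8 to 12 weeks old, and the labels name no stimulation or infection and give a sort purity above 90%. Each population was hybridised to 1 array, so there are no replicates and no test between populations was possible. Every difference is a description of those 2 arrays.

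Interferons are secreted proteins that put cells into an antiviral state. Type I interferons bind a receptor of IFNAR1 and IFNAR2 chains, and the attached kinases JAK1 and TYK2 start a signal that reaches STAT2 and IRF9, parts of a complex that binds interferon-stimulated response elements in gene promoters. Interferon gamma, a product of NK cells themselves, acts through a receptor of IFNGR1 and IFNGR2 chains. Interferon-stimulated genes encode sensors of viral nucleic acid, enzymes that destroy RNA or block its translation, and regulators of the response, and many are transcribed at a low level in resting cells. The roles named below are those known for the human or mouse proteins.

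The core of the response element is shown first because it stood in most of the promoters that could be searched and was not used to choose the genes. Promoters, 250 bases before to 50 after the gene start, were taken from RefSeq on the GRCr8 build and matched by gene number for 26 of the 34 genes. The core searched for, on both strands, was GAAA followed by any 2 bases and GAAA again, and it was found in 17 of these 26 promoters (65.4%). Among all 27457 genes with a promoter of that length it was found in 1131 (4.12%), and among the 7699 that were measured on the arrays in 261 (3.39%). In 16 genes a match lay before the start, and in 13 of them the nearest match began within 100 bases of it. The matches of Oas1a, Oas1b and Bst2 were 2 overlapping copies each. The following stretches run 5′ to 3′ on the strand of the gene, with the matching letters in capitals. They are those of the called genes Ifih1 and Igtp, followed by further examples, of which Irgm and Gbp2 share the role of Igtp.
Ifih1, chr3:67683998-67684047, minus strand: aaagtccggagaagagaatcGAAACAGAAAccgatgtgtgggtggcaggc
Igtp, chr10:42874924-42874973, plus strand: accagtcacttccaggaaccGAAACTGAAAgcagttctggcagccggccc
Irgm, chr10:33742583-33742632, minus strand: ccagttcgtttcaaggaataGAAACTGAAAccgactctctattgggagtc
Isg20, chr1:142239947-142239996, plus strand: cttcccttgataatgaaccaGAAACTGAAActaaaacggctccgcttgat
Oas1a, chr12:41330405-41330454, plus strand: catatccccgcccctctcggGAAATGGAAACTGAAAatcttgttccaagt
Bst2, chr16:18255069-18255118, minus strand: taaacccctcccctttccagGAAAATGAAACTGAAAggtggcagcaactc
Ifit3, chr1:241527262-241527311, plus strand: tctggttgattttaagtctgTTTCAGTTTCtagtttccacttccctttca
Gbp2, chr2:234005676-234005725, plus strand: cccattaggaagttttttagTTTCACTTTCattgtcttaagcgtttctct
In Ifit3 and Gbp2 the match was on the other strand, so it reads here as TTTC and TTTC, 2 bases apart. No match was found in 9 promoters, those of Mx1, Oasl, Herc6, Parp9, Irf9, Stat2, Cmpk2, Samhd1 and Ifi35, which says only that these letters are absent from the window. Samhd1 had the largest difference of the set, and the 250 bases before its start are therefore shown.
Samhd1, chr3:166214411-166214660, minus strand: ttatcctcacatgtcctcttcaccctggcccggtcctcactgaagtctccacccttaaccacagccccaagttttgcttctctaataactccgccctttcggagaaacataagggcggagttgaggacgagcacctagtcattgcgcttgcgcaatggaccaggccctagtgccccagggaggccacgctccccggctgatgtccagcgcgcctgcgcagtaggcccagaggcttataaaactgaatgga

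**Figure D1:**
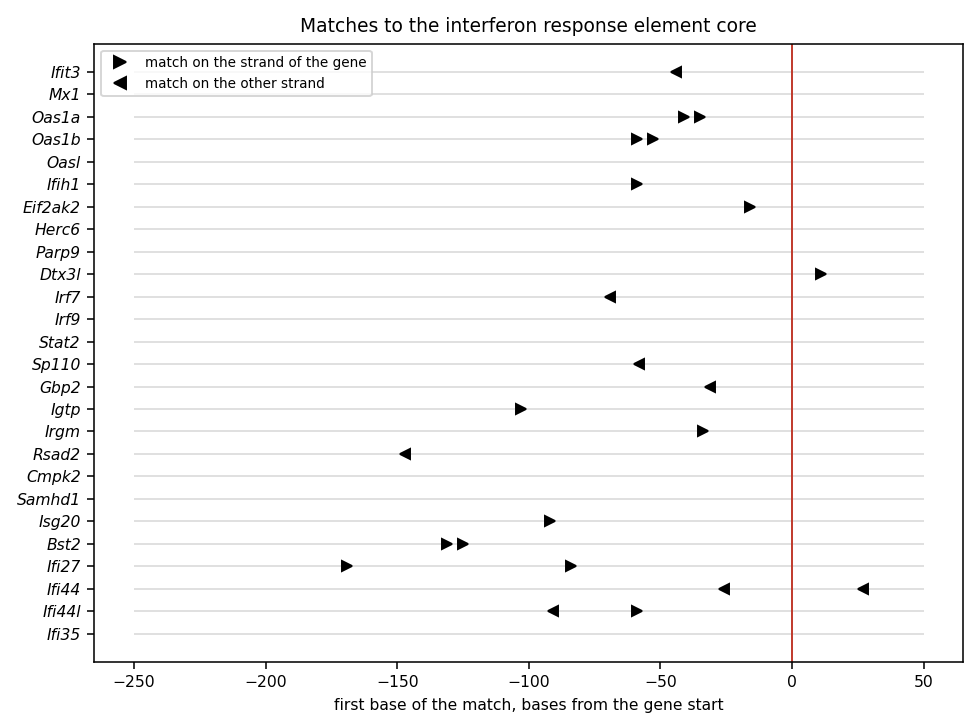
Position of each match to the response element core in the 26 promoters, as the distance in bases of its first base from the gene start (red line), with the arrow giving the strand. Matches were found in 17 promoters, most of them within 100 bases before the start.

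The MAS5 signals have arbitrary units and a median of 19.6 for NKR-P1B+ cells, against 21.3 for Ly49s3+ cells. The floor was passed by 49.3% of probe sets in NKR-P1B+ cells, against 50.7% in Ly49s3+ cells. The ratio of 3′ to 5′ signal of the beta-actin control was 11.9 in NKR-P1B+ cells, against 13.2 in Ly49s3+ cells. For the GAPDH control it was 2.84 in NKR-P1B+ cells, against 2.77 in Ly49s3+ cells. Signal was thus weaker towards the 5′ end of both control transcripts on both arrays, and the effect on the members was not tested. Of 17 poly-A spike probe sets above the floor, 16 were lower in NKR-P1B+ cells, with a median log2 difference of −0.53, whereas the 18 hybridisation spike probe sets had a median of 0.01. Scaling to the poly-A spikes brought the median difference of all measured genes to 0.49, so each direction below is relative to the deposited scale, on which the median of all 9114 measured genes was −0.02. Precision is limited by the number of arrays. The spread between probe sets of a gene, which share the RNA and the arrays, was used as a partial guide. It was an SD of 0.38 on the log2 scale for genes with signals under 50, 0.32 from 50 to 100, 0.25 from 100 to 200, 0.21 from 200 to 500 and 0.17 above 500.

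On the deposited scale, 29 of the 32 measured interferon-stimulated genes were higher in NKR-P1B+ cells and 3 were lower, against 47.6% of all measured genes higher there and 52.2% lower. Most of the differences were small. Taken as NKR-P1B+ minus Ly49s3+ on the log2 scale, the differences had a median of 0.20. At least 1.5-fold higher were 4 genes, the nucleotide-destroying enzyme gene Samhd1, the RNA sensor gene Ifih1, the GTPase gene Igtp and the ubiquitin-like modifier gene Isg15. That is 12.5% of the measured members, against 5.06% of all measured genes, and no member was at least 1.5-fold lower, against 5.72%. With the arrays scaled to the poly-A spikes all 33 members then measured were higher, as were 90.7% of all genes, and 29 of the 33 lay above the median of all genes. The member median exceeded the median of all genes by 0.22 on the deposited scale and by 0.24 on the poly-A scale. Of the 30 members above the floor on both arrays, for which no value is a bound, 27 were higher, against 48.5% of all genes above the floor on both, and their median was 0.20. At least 1.5-fold higher were 3 of these 30, against 4.61% of the same genes, and the others were within 1.5-fold. The difference of Ifit3 is a lower bound just under 1.5-fold, so it was not placed on either side. The members were chosen with earlier results known, so these counts are descriptive.

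Of the 32 measured members, 18 were among the 25% of measured genes with the highest differences, 11 were in the next 25%, 1 was in the 25% after that and 2 were in the lowest 25%. Members were higher in each signal range on the deposited scale. All 9 measured members with a mean signal below 100 were higher in NKR-P1B+ cells, with a median difference of 0.34, against 43.6% of the 3729 genes in that range. Of 14 members from 100 to 200, 11 were higher, with a median of 0.13, against 48.5% of genes. All 9 measured members at 200 and above were higher, with a median of 0.20, against 51.4% of genes. At least 1.5-fold higher were 1 of the 9 members below 100, against 7.64% of genes in that range. That gene was Ifih1. Ifih1 and Ifit3, both among these 9, passed the floor in NKR-P1B+ cells alone, so they could only come out higher. From 100 to 200 there were 3 of 14, against 4.28% of genes. At 200 and above there were 0 of 9, against 2.76% of genes, so with 9 members that 0 carries little weight. On the poly-A scale the same 3 members that were lower on the deposited scale, Dtx3l, Stat2 and Usp18, had differences of 0.15, 0.23 and 0.44, below the all-gene median of 0.49. The member measured on the poly-A scale but not on the deposited scale was also not above that median. The number lower was 4 of 33 with the floor at the 35th percentile. It was 4 of 32 with quantile normalisation and with all probe sets of a gene averaged.

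**Figure D2:**
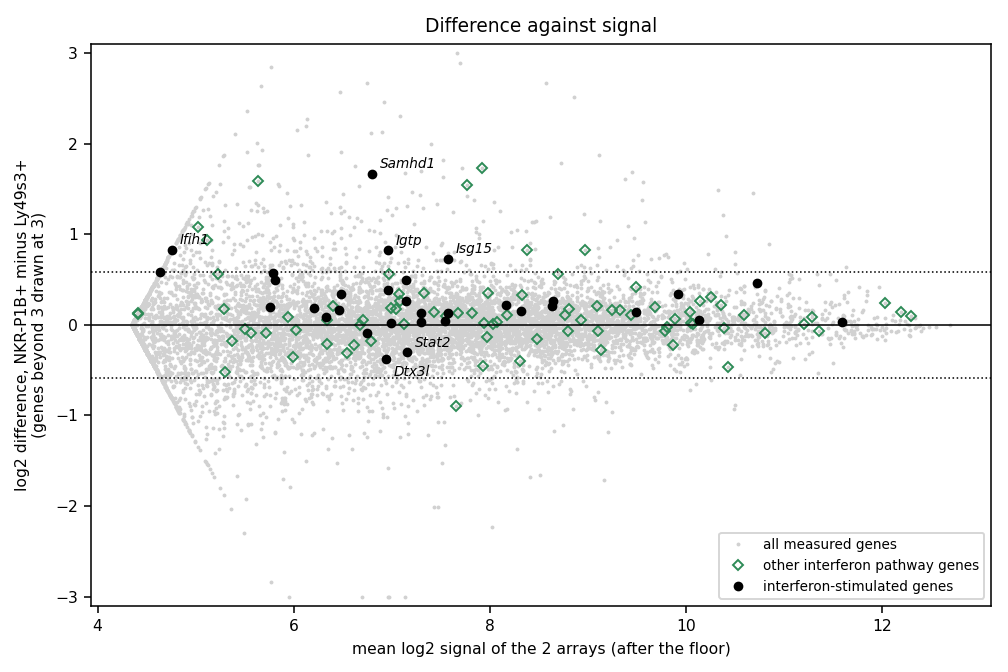
Log2 difference, NKR-P1B+ minus Ly49s3+, of each measured gene against its mean log2 signal on the deposited scale, with interferon-stimulated genes in black, other interferon pathway genes as green diamonds and all genes in grey, and dotted lines at 1.5-fold. The black points lie mostly a little above 0, at a median of 0.20, and Samhd1 is the farthest from it. On the scale of the poly-A spikes the median of all genes is 0.49.

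The enzymes that act on nucleotides and RNA held the largest difference. Samhd1, whose product removes the deoxynucleotides that viral DNA synthesis needs, had a signal of 198 in NKR-P1B+ cells, against 62.6 in Ly49s3+ cells. That is 3.16-fold, a log2 difference of 1.66 against an SD between probe sets of 0.25, and it ranked 38 of 9114 measured genes. It rests on the 1 probe set of the gene. Rsad2, which encodes viperin, an enzyme that makes a chain-terminating nucleotide, had 66.8 in NKR-P1B+ cells, against 47.3 in Ly49s3+ cells, 1.41-fold. Its neighbour Cmpk2, a mitochondrial nucleotide kinase, differed by 0.02 on the log2 scale, with 128 in NKR-P1B+ cells, against 127 in Ly49s3+ cells. The exonuclease gene Isg20 had 82.5 in NKR-P1B+ cells, against 77.9 in Ly49s3+ cells. Samhd1 thus stood apart from the other 3 genes of this role, which were within 1.5-fold.

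Among the sensors of foreign nucleic acid, Ifih1 encodes MDA5, which detects long double-stranded RNA. It was above the floor in NKR-P1B+ cells alone, at 36.1, against 14.3 in Ly49s3+ cells, which gives at least 1.77-fold. The floor carries this number, since the signals themselves were low on both arrays. Zbp1, a sensor of Z-form nucleic acid that can start cell death, had 168 in NKR-P1B+ cells, against 119 in Ly49s3+ cells, 1.41-fold and a log2 difference of 0.50. Eif2ak2, which encodes PKR, a kinase that halts translation on binding double-stranded RNA, had 159 and 156 in NKR-P1B+ and Ly49s3+ cells, a difference of 0.03. The differences of the sensors thus ranged from none beyond the probe set spread, in Eif2ak2, to the bound of Ifih1.

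Isg15 encodes a ubiquitin-like protein that is attached to other proteins during the response. Its signal was 245 in NKR-P1B+ cells, against 148 in Ly49s3+ cells, 1.66-fold, or 0.73 on the log2 scale. Usp18, the protease that removes ISG15 and also damps the type I receptor, had 104 in NKR-P1B+ cells, against 111 in Ly49s3+ cells, a difference of −0.09 on the deposited scale. Herc6, the ligase that attaches ISG15 in mouse, had 79.1 and 69.4 in NKR-P1B+ and Ly49s3+ cells. The modifier and its protease thus lay on opposite sides of 0, with Usp18 inside the SD between probe sets of 0.25.

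Parp9 and Dtx3l encode partner proteins, an ADP-ribosyltransferase family member and a ubiquitin ligase that bind each other. Parp9 had 336 in NKR-P1B+ cells, against 302 in Ly49s3+ cells, a log2 difference of 0.16. Dtx3l had 108 in NKR-P1B+ cells, against 140.1 in Ly49s3+ cells, a difference of −0.38, the most negative of the set on the deposited scale. Trim21, the intracellular antibody receptor, had no probe set of its own and was not analysed here.

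The interferon-inducible GTPases, many of which respond to interferon gamma and attack the vacuoles of intracellular pathogens, were represented by Igtp, Irgm and Gbp2. Igtp had 166 in NKR-P1B+ cells, against 93.7 in Ly49s3+ cells, 1.77-fold. In NKR-P1B+ and Ly49s3+ cells Irgm had 58.1 and 50.5, and Gbp2 had 439 and 364, with log2 differences of 0.20 and 0.27. The other probe set of Igtp was below the floor on both arrays, at 13.4 in NKR-P1B+ cells, against 5.4 in Ly49s3+ cells, and averaging both brought the Igtp difference to 0.41, under 1.5-fold. A further probe set shared by Igtp, Irgm2 and Igtpl1 had 68.4 in NKR-P1B+ cells, against 66.4 in Ly49s3+ cells. The 1.77-fold value of Igtp thus came from 1 probe set. Gbp5 and Ifi47 had no probe set of their own.

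The IFIT proteins bind viral RNA that lacks the host's cap marks. Ifit2 had 155 in NKR-P1B+ cells, against 129 in Ly49s3+ cells, a log2 difference of 0.27. Ifit3 was above the floor in NKR-P1B+ cells only, at 30.5, against 19.8 in Ly49s3+ cells, which gives a log2 difference of at least 0.58, a bound just short of 1.5-fold. Ifit1 was below the floor on both arrays, at 16.1 and 19.2 in NKR-P1B+ and Ly49s3+ cells.

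Mx proteins are dynamin-like GTPases that trap viral nucleocapsids. Mx1 had 1087 in NKR-P1B+ cells, against 859.8 in Ly49s3+ cells, 1.26-fold, and its log2 difference of 0.34 was larger than the SD between probe sets of 0.17. Mx2 had 67.2 and 45.2 in NKR-P1B+ and Ly49s3+ cells, 1.49-fold, from the brighter of its 2 probe sets, and the other was below the floor. Both Mx genes were thus higher in NKR-P1B+ cells, short of 1.5-fold.

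The OAS enzymes make oligoadenylates that activate the ribonuclease RNase L. Oas1a had 100.4 in NKR-P1B+ cells, against 79.2 in Ly49s3+ cells, 1.27-fold. Oasl, a relative that assists RNA sensing in human cells, had 142.5 in NKR-P1B+ cells, against 109 in Ly49s3+ cells, 1.31-fold. Oas1b was below the floor on both, at 0.8 and 9.5 in NKR-P1B+ and Ly49s3+ cells. Oas1i shared its probe set with Oas1g (44.9 in NKR-P1B+ cells, 34.8 in Ly49s3+ cells), and Oas1k, Oas2 and Oas3 had no probe set of their own. The Oas1 genes are near copies, so their signals cannot be assigned to single genes with certainty.

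The transcription factors of the response differed little. Irf7, which amplifies interferon production, had 309 in NKR-P1B+ cells, against 266 in Ly49s3+ cells, 1.16-fold. Irf9, a DNA-binding partner of STAT2, had 199.7 in NKR-P1B+ cells, against 182 in Ly49s3+ cells, a log2 difference of 0.13. Stat2 had 128 in NKR-P1B+ cells, against 158 in Ly49s3+ cells with the probe set of highest mean signal, a log2 difference of −0.30, but its other probe set had 129 in NKR-P1B+ cells, against 119.5 in Ly49s3+ cells, a difference of 0.11. Stat2 therefore had no settled direction, also because it was at 0.23 on the poly-A scale. Sp110, a nuclear body protein, had 1139.6 in NKR-P1B+ cells, against 1102 in Ly49s3+ cells, 1.03-fold.

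Membrane and mitochondrial products were close on both arrays apart from Ifi27. Ifi27, a small hydrophobic protein of mitochondria and the nuclear envelope, had 1989 in NKR-P1B+ cells, against 1440.2 in Ly49s3+ cells, 1.38-fold, and its log2 difference of 0.47 exceeded the SD between probe sets of 0.17. Its adjacent relative Ifi27l2b had 3105 and 3048 in NKR-P1B+ and Ly49s3+ cells, a difference of 0.03. Bst2, which encodes tetherin, the protein that holds budding virus at the cell surface, had 165 in NKR-P1B+ cells, against 151 in Ly49s3+ cells. Xaf1 had no probe set of its own.

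The remaining members were all within 1.5-fold. Ifi44 had 425 in NKR-P1B+ cells, against 369 in Ly49s3+ cells, and Ifi44l had 754 in NKR-P1B+ cells, against 682 in Ly49s3+ cells, with log2 differences of 0.20 and 0.14. In NKR-P1B+ and Ly49s3+ cells Ifi35 had 189 and 184, and the Golgi chaperone gene Rtp4 had 93.4 and 83.4. Their differences of 0.04 and 0.16 lay within the SD between probe sets, as did those of Ifi44 and Ifi44l.

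**Figure D3:**
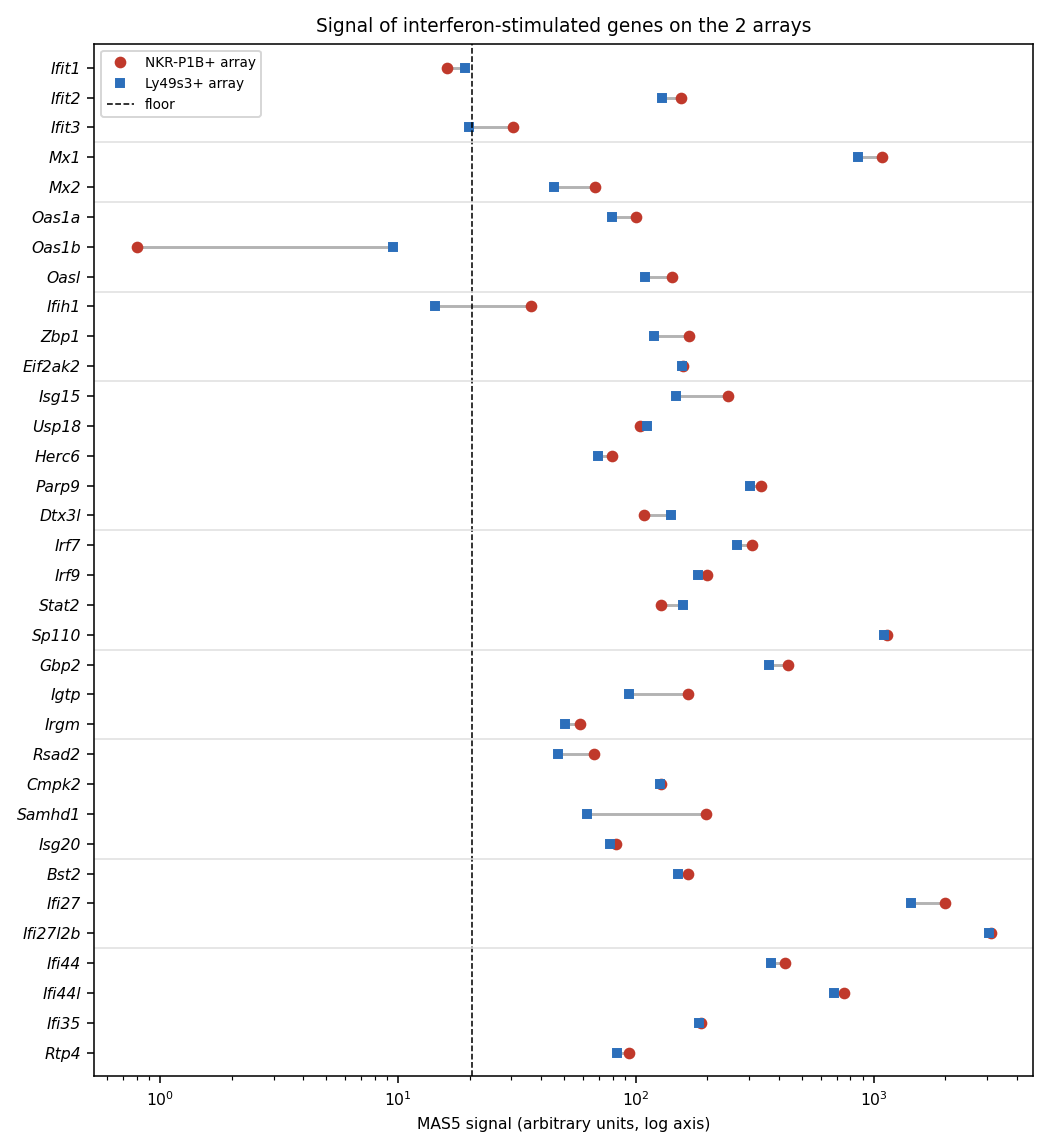
MAS5 signal (log axis) of the 34 genes with a probe set of their own in NKR-P1B+ cells (red circles) and Ly49s3+ cells (blue squares), with genes grouped by role and the floor of 20.4 dashed. Red lies to the right of blue in 29 of the 32 measured genes on this deposited scale, and signals of different genes are not comparable since they come from different probes.

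Of the 32 measured genes, 17 differed by more than the SD between probe sets in their signal range, 15 of them higher in NKR-P1B+ cells, and the lower ones were Dtx3l and Stat2. The same count over all measured genes was not made, so these numbers do not set the members apart from other genes. The other 15, including Usp18, Bst2, Irf9, Isg20 and Eif2ak2, differed by less than that spread. Across the deposited scale and the 11 other settings tried, Samhd1 had differences from 1.28 to 2.19 and Isg15 from 0.62 to 1.26, so both were at least 1.5-fold higher in all 12. For Ifih1 the range was 0.56 to 1.35 over the 10 settings that measured it, and its lowest value was under 1.5-fold. Igtp ranged from 0.41 to 1.35. Dtx3l was negative in all settings but the poly-A scale.

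**Figure D4:**
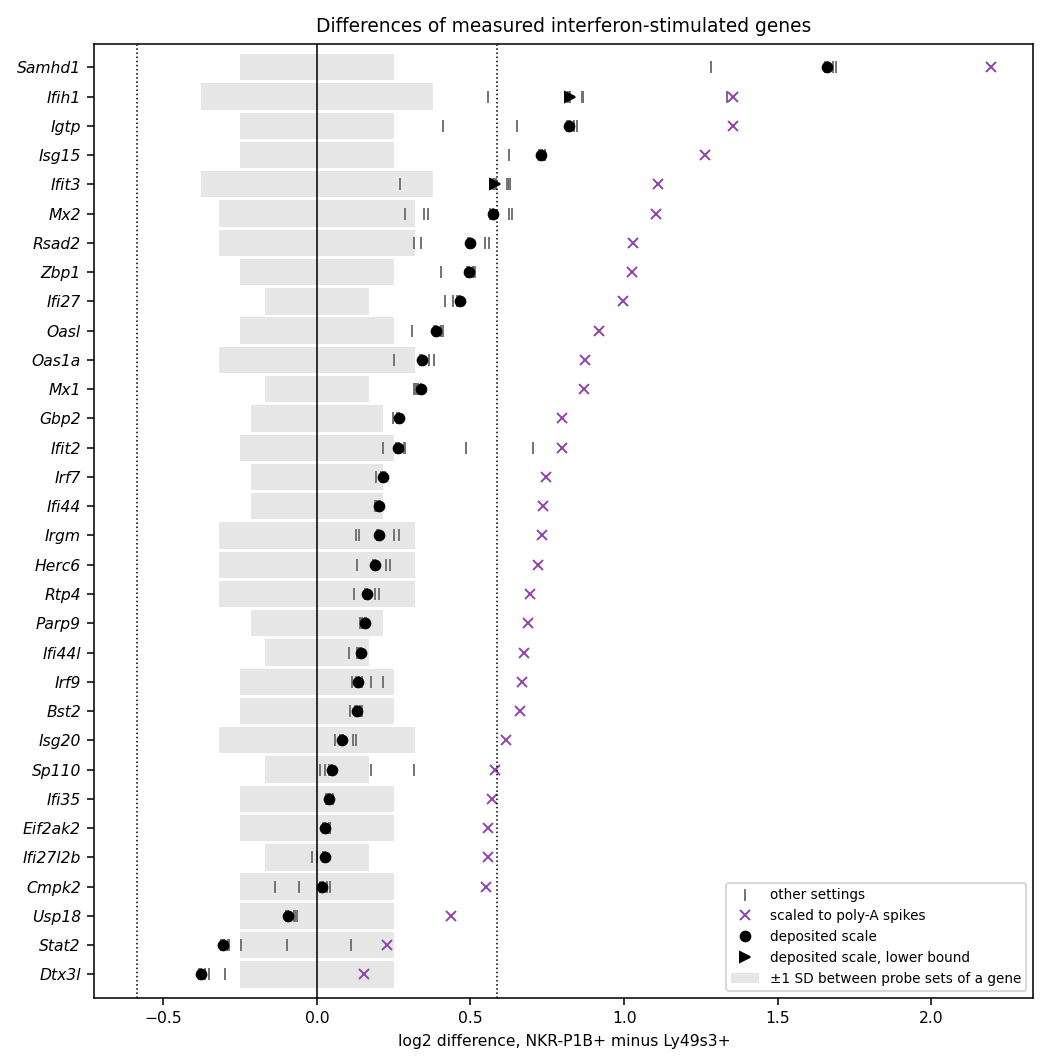
Log2 difference, NKR-P1B+ minus Ly49s3+, of the 32 measured genes on the deposited scale (black; triangles are lower bounds), under other settings (grey ticks) and scaled to the poly-A spikes (purple crosses), with grey bars for 1 SD between probe sets of a gene and dotted lines at 1.5-fold. The purple crosses lie to the right of the black points, and Dtx3l, Stat2 and Usp18 are below 0 on the deposited scale and above it on the poly-A scale.

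Several probe sets were available for 7 of the genes. Counting probe sets in place of genes, 38 of the 42 that carried a member's symbol alone were measured, and 34 of them were higher in NKR-P1B+ cells and 4 lower. The same count over all probe sets was not made, and probe sets of a gene are repeat readings of the same RNA. The probe sets of a gene did not always give the same size. The brightest Sp110 probe set differed by 0.05, while another differed by 0.72, with 126 in NKR-P1B+ cells, against 76.4 in Ly49s3+ cells. For Ifit2 the brighter probe set differed by 0.27 and the dimmer by 0.70, that one at 39.9 in NKR-P1B+ cells, against 24.5 in Ly49s3+ cells. The probe sets of Irf9 differed by 0.13 and 0.22, close to each other. Those of Cmpk2, at 0.02 and −0.14, and those of Stat2 lay on both sides of 0.

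**Figure D5:**
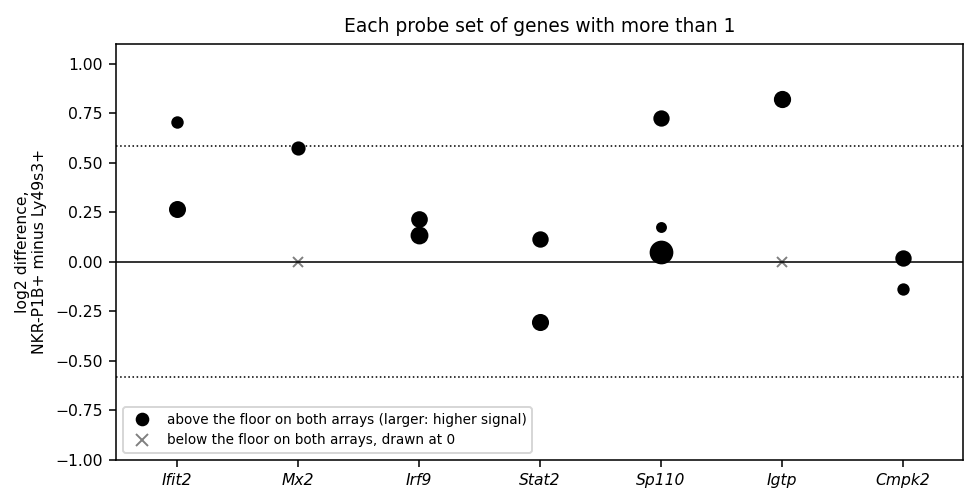
Log2 difference, NKR-P1B+ minus Ly49s3+, of every probe set of the 7 genes with more than 1, on the deposited scale, with larger points for higher signals, crosses for probe sets below the floor on both arrays and dotted lines at 1.5-fold. Irf9 probe sets lie close together, Stat2 and Cmpk2 probe sets lie on both sides of 0, and Sp110 probe sets range from 0.05 to 0.72.

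The response element core was compared with the differences. The 16 measured genes with a match in the promoter had a median difference of 0.21, the 9 without a match 0.16, and the 7 with no promoter entry 0.27. Ifih1 and Igtp carry the core printed above, Samhd1 does not, and Isg15 had no entry. All 3 medians were above that of all genes, −0.02.

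Other genes of the interferon pathway were described from a list of 138, of which 97 had a probe set of their own and 82 were measured. On the deposited scale 55 were higher in NKR-P1B+ cells and 27 lower (67.1% higher, against 47.6% of all genes), with a median of 0.09. At least 1.5-fold higher were 7 (8.54%, against 5.06%) and lower was 1 (against 5.72%). Ifng, which encodes interferon gamma, was the ligand gene above the floor, with 140.3 in NKR-P1B+ cells, against 124 in Ly49s3+ cells, 1.13-fold. Ifnb1 and Ifnk were below the floor on both arrays, and the other listed interferon genes had no probe set of their own.

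All 5 measured receptor genes were nominally higher in NKR-P1B+ cells on the deposited scale, against 47.6% of all measured genes. Their median was 0.34, and 0.50 with the dimmest measured probe set of each gene. The values below are from 1 probe set per gene, though Ifnar1 has 6 and Ifnar2 and Ifngr2 have 2 each. Ifngr2, the signalling chain of the interferon gamma receptor, had 47.5 in NKR-P1B+ cells, against 22.4 in Ly49s3+ cells, 2.12-fold, near the floor in Ly49s3+ cells. Its partner Ifngr1 had 2564 and 2422 in NKR-P1B+ and Ly49s3+ cells, 1.06-fold. For the type I receptor, Ifnar1 had 152 in NKR-P1B+ cells, against 119.9 in Ly49s3+ cells, and Ifnar2 had 360.3 in NKR-P1B+ cells, against 287 in Ly49s3+ cells, 1.26-fold each. Il10rb, a chain shared by the lambda interferon receptor and other cytokine receptors, had 504 in NKR-P1B+ cells, against 343 in Ly49s3+ cells, 1.47-fold, and Ifnlr1 was below the floor on both.

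The measured kinase and factor genes that carry the signal were within 1.5-fold. In NKR-P1B+ and Ly49s3+ cells the kinase genes had 2372 and 2351 (Jak1), 91.1 and 78.8 (Jak2), and 433 and 454 (Tyk2). In NKR-P1B+ and Ly49s3+ cells the factor genes had 1242 and 1033 (Stat3) and 1110.2 and 1003 (Irf1). Their log2 differences ran from −0.07 to 0.27. The inhibitors split evenly, 3 higher and 3 lower in NKR-P1B+ cells, with a median of 0.03 on the deposited scale. The brightest of them, in NKR-P1B+ and Ly49s3+ cells, were the phosphatase genes Ptpn6 (863 and 906) and Ptpn2 (881 and 768) and the SUMO ligase gene Pias1 (537 and 563). Socs1 and Socs3 were below the floor on both arrays. The sensors, adaptors and kinases that lead to interferon production also split, 5 higher and 5 lower in NKR-P1B+ cells, with a median of −0.01. In NKR-P1B+ and Ly49s3+ cells the brightest of these had 1730.4 and 1847 (the transcription factor gene Irf8), 970.0 and 930.0 (Sting1, an adaptor of DNA sensing) and 866 and 1013 (Irf3, which switches on type I interferon genes).

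Of 55 measured genes that interferon is also known to induce, 37 were higher in NKR-P1B+ cells and 18 lower on the deposited scale (67.3% higher, against 47.6% of all genes), with a median of 0.09. At least 1.5-fold higher were 6 (10.9%, against 5.06% of all genes). Tnfsf10, which encodes the death ligand TRAIL, had 441 in NKR-P1B+ cells, against 132.5 in Ly49s3+ cells, 3.33-fold. Parp12, which encodes an ADP-ribosyltransferase, had 86.2 in NKR-P1B+ cells, against 28.7 in Ly49s3+ cells, 3.00-fold. Gch1, the enzyme that begins tetrahydrobiopterin synthesis, had 370.2 in NKR-P1B+ cells, against 127.5 in Ly49s3+ cells, 2.90-fold. The others, in NKR-P1B+ and Ly49s3+ cells, were the galectin-binding glycoprotein gene Lgals3bp (48.2 and 25.1), the Schlafen family gene Slfn5 (668 and 375) and the antiviral membrane protein gene Ifitm2 (444 and 250.1). Tent5a, which encodes a poly(A) polymerase, was lower in NKR-P1B+ cells, at 147, against 275 in Ly49s3+ cells. The brightest of the list differed little, and in NKR-P1B+ and Ly49s3+ cells had 5196 and 4871 (B2m, the light chain of MHC class I), 4924 and 4454 (the chemokine gene Ccl5) and 4564 and 3854.5 (Ifitm1, a relative of Ifitm2).

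Markers of other cell types were examined beside these differences. All 15 NK markers on the arrays were measured, and 10 were higher in NKR-P1B+ cells (66.7%, against 47.6% of all measured genes). Their median was 0.23, close to that of the interferon-stimulated genes. Of 16 antigen-presenting cell markers, 15 were on the arrays and 11 measured. Of these, 8 were higher in NKR-P1B+ cells (72.7%, against 47.6% of all genes), with a median of 0.41. At least 1.5-fold higher were 4 (36.4%, against 5.06% of all genes), and 1 was at least 1.5-fold lower (against 5.72%). RT1-Bb, RT1-Db1 and Cd86 passed the floor in NKR-P1B+ cells alone and Batf3 in Ly49s3+ cells alone, so the floor fixed their direction. The other 7 were above it on both arrays. The summed signal of the list was 4995.5 in NKR-P1B+ cells, against 3202 in Ly49s3+ cells. Most of that sum came from Itgax (2281 in NKR-P1B+ and 1716 in Ly49s3+ cells) and Cd83 (1901 in NKR-P1B+ and 965 in Ly49s3+ cells). Each sum given here adds signals of different genes, which are not comparable, so it does not measure the amount of a cell type. RT1-Da had 346 in NKR-P1B+ cells, against 97.7 in Ly49s3+ cells, and Cd74 had 197 in NKR-P1B+ cells, against 120 in Ly49s3+ cells, 1.64-fold. RT1-Db1 had 42.3 in NKR-P1B+ cells, against 17.4 in Ly49s3+ cells, at least 2.07-fold. Batf3 went the other way and had the largest difference of the list, with 4.2 in NKR-P1B+ cells, below the floor, against 83.2 in Ly49s3+ cells, at least 4.08-fold lower. RT1-Ba and RT1-DMa were also lower in NKR-P1B+ cells, by log2 differences of −0.28 and −0.22, while Flt3, Clec9a, Cd80 and Ciita were below the floor on both. Of 17 macrophage markers, 4 of 14 on the arrays were measured, 2 higher and 2 lower in NKR-P1B+ cells. Hmox1, higher, passed the floor in NKR-P1B+ cells alone and Cd4, lower, in Ly49s3+ cells alone. The sum was 608 in NKR-P1B+ cells, against 444 in Ly49s3+ cells. Lyz2 had 356 in NKR-P1B+ cells, against 133 in Ly49s3+ cells, and Ctss had 154 in NKR-P1B+ cells, against 185 in Ly49s3+ cells, while Cd68, Cd14, Csf1r, Adgre1, Cd163 and the C1q genes were below the floor on both.

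Plasmacytoid dendritic cells, which make much type I interferon and carry Bst2 and Irf7, had 3 of 6 markers on the arrays measured, with sums of 5092 in NKR-P1B+ cells, against 4957 in Ly49s3+ cells. Most of both sums came from Plac8 (3238 in NKR-P1B+ and 3029 in Ly49s3+ cells) and Irf8 (1730.4 in NKR-P1B+ and 1847 in Ly49s3+ cells). Tcf4 had 112.5 in NKR-P1B+ cells, against 63.1 in Ly49s3+ cells, and Pacsin1, Cox6a2 and Klk1 were below the floor. For B cells 3 of 10 were measured (sums of 332.5 in NKR-P1B+ and 357 in Ly49s3+ cells), 2 of them higher in NKR-P1B+ cells. Cd22 had 103 in NKR-P1B+ and 52.9 in Ly49s3+ cells, 1.95-fold. Bank1 was 1.59-fold lower, with 156 in NKR-P1B+ and 248 in Ly49s3+ cells. Blnk, at 26.1 in NKR-P1B+ and 0.9 in Ly49s3+ cells, passed the floor in NKR-P1B+ cells alone. Ms4a1 and Cd79b were below the floor. For T cells 6 of 8 were measured (sums of 1658 in NKR-P1B+ and 1282 in Ly49s3+ cells), and 4 of the 6 were higher in NKR-P1B+ cells, with a median of 0.37. Cd5 had 92.7 in NKR-P1B+ and 40.8 in Ly49s3+ cells, 2.27-fold, Cd6 had 273 and 179 in NKR-P1B+ and Ly49s3+ cells, 1.52-fold, and Bcl11b had 637 and 429 in NKR-P1B+ and Ly49s3+ cells. Of the CD3 chains, Cd3d and Cd3e were below the floor on both arrays and Cd3g had 22.3 in NKR-P1B+ and 42.9 in Ly49s3+ cells. For erythroid cells 4 of 7 were measured (sums of 373.5 in NKR-P1B+ and 353 in Ly49s3+ cells). Of the 4, 3 were lower in NKR-P1B+ cells, with a median of −0.45. Slc4a1 and Epor passed the floor in Ly49s3+ cells alone, so they could only come out lower. Hbb had 276 in NKR-P1B+ and 153 in Ly49s3+ cells, whereas Hemgn had 50.6 in NKR-P1B+ and 131 in Ly49s3+ cells. All 6 neutrophil markers were below the floor. The part of these cells in the differences of interferon-stimulated genes was not tested, and in sorted bulk RNA, fewer cells of a type and less RNA per cell cannot be told apart.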

How the data were processed

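The authors deposited an intensity for every probe set (linear MAS5 signal, per the submitters' processing notes), from cRNA of 3 ug total RNA. The MAS5 version and scaling target, any detection calls and the pooling of the 9 rats were not given in the sources read. The mean after trimming was 100.04 on each array, so both share a common scale, genes were not centred, and the scaling factor stays unknown. Both sample columns were used.

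Names came from the platform annotation of the probe sets (20826 with 1 gene, 436 with several, 9780 with none listed, controls left out), and all 34 genes found kept their symbol in the RefSeq table of GRCr8. Signals under 20.4, the 50th percentile over both arrays, were set to it before log2 was taken (Python 3.11.15, pandas 2.3.3). Where a gene had several probe sets, that of highest mean log2 signal was used. With 1 array per population no p-value was computed. Genes at least 1.5-fold apart were counted, and ratios that involve the floor are lower bounds. The calculation was tested on simulated data with planted changes larger than any member difference on the deposited scale. That test does not bear on differences as small as most of those reported.

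The rule for names accounted for all 42 members, the measured receptor and JAK-STAT genes, and of each other pathway list the genes at least 1.5-fold apart and the 3 brightest. The members and lists were chosen with earlier results of these data known. Other settings were median centring, quantile normalisation, loess with a span of 0.3, 2 spike scalings, floors at the 35th and 65th percentiles, adding 32, genes above the floor on both arrays, and 2 other rules for probe sets.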

Additional observations from a re-analysis of the deposited data

How the results depend on the processing

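The member median lay above the median of all genes, by from 0.18 to 0.24, on the deposited scale and under each of the 11 other settings. Scaling to the poly-A spikes changed most: the member median became 0.73, 24 members were at least 1.5-fold higher in NKR-P1B+ cells, as were 38.0% of all genes, and 0 members had a difference below 0, and 48 pathway genes were at least 1.5-fold apart, against 8 on the deposited scale. Of all 9635 genes measured on the poly-A scale, 3663 were at least 1.5-fold higher and 112 at least 1.5-fold lower. On the deposited scale these were 461 and 521 of 9114. The median of all genes on the poly-A scale was 0.49, and relative to it 6 members were at least 1.5-fold higher, against 5.42% of all genes. Relative to the median of the deposited scale there were also 6, against 5.35% of all genes. Under the other 10 settings from 3 to 6 members were at least 1.5-fold higher in NKR-P1B+ cells and none at least 1.5-fold lower, against from 3.03% to 6.83% of all genes at least 1.5-fold higher. The pathway genes at least 1.5-fold apart numbered from 6 to 11 under those settings, with 6 when all probe sets of a gene were averaged. Of the pathway genes called, Gch1 and Ifngr2 have 2 probe sets each and Tent5a has 3. The cause of the spike difference was not tested. No paired analysis was possible because each population has 1 array, and no replicate could be left out. Signals near the floor limit Ifih1, Ifit3 and Ifngr2.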

Other observations

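Neighbouring interferon-stimulated genes were set side by side. By the order of protein-coding genes in the RefSeq table of GRCr8, 5 pairs of members with a value were adjacent, with 0 coding genes between them. Ifi44 and Ifi44l had similar log2 differences, NKR-P1B+ minus Ly49s3+, of 0.20 and 0.14, and Ifit2 and Ifit3 had 0.27 and 0.58, the second a lower bound. In the other adjacent pairs the values lay further apart. Rsad2 had 0.50 and Cmpk2 0.02, Ifi27 had 0.47 and Ifi27l2b 0.03, and Parp9 had 0.16 and Dtx3l −0.38. Whether adjacent genes differ from each other was not tested, since each gene has 1 value per array.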
